A study of Mus musculus with 12 samples.

Results

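Trace amine-associated receptors, encoded by the Taar genes, were followed in the main olfactory epithelium (MOE), the sheet of nasal tissue that holds the odour-sensing neurons. Members were the rows of the deposited table whose annotated gene symbols included 1 of 10 listed Taar genes, and they were chosen by name and not by their values. This gave 10 probe sets of 28944 experimental probe sets on the array, a probe set being the group of probes summarised to 1 value per transcript. Of these, 8 carried 1 gene symbol each (Taar2, Taar3, Taar4, Taar5, Taar6, Taar7b, Taar7d and Taar9). The other 2 carried several, 1 with the 5 symbols Taar7a, Taar7b, Taar7d, Taar7e and Taar7f, and 1 with the 3 symbols Taar8a, Taar8b and Taar8c. They are called the shared Taar7 and the shared Taar8 probe set, since Taar7a and Taar8a were measured nowhere else and cannot be told from their relatives there. All 10 members passed the filter on low values, a mean log2 signal above 5.

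RNA of whole MOE from H2be-KO mice (6 arrays) and WT mice (6 arrays), all 6 months old, was hybridised to whole-transcript arrays (Mouse Gene 1.0 ST, Affymetrix), with a pair of animals pooled per array. In H2be-KO mice, per the study's methods, the coding sequence of H2be, a histone H2B gene of olfactory neurons, is replaced in every cell by a membrane-bound mCherry reporter that begins with a stretch of Gap43. WT mice carry the intact gene. The question was whether the Taar receptors differ between the genotypes, and how their signals order and vary together. Median signal per array was 7.84 to 7.90 (log2), and the H2be probe set, annotated as H2bc21, averaged 11.65 ± 0.12 over the H2be-KO arrays, against 11.89 ± 0.17 over the WT arrays (SD, n = 6 each, exact permutation p = 0.0195). It does not check the labels by itself, because only the coding sequence was replaced and the position of its probes was not analysed here. The transcript Xist, made from the inactive X chromosome of females, read 11.39 to 11.67 in replicates 1 to 3 of each genotype and 0.0 to 3.89 in replicates 4 to 6. The mean of 6 Y-linked probe sets was 3.82 to 4.06 in those replicates 1 to 3 and 7.59 to 7.85 in replicates 4 to 6, while no label states the sex behind an array. That both sexes were used is read from these signals only, and the study names male H2be-KO mice where it plots 6-month array differences against H2BE levels. The enamel gene Amelx read 11.87 and 11.66 in H2be-KO replicates 1 and 6, against 5.11 to 5.70 in the other H2be-KO arrays and 5.34 to 6.03 in WT arrays. Replicate numbers are used below as names and, in alternatives to the main tests, to match arrays of the same number across the genotypes.

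Taar genes encode a small family of G protein-coupled receptors apart from the odorant receptors, and all but Taar1 are known as olfactory receptors for volatile amines. A neuron that chooses a Taar gene normally expresses that receptor alone, signals through the same G protein, adenylyl cyclase and cyclic nucleotide-gated channel as neurons with odorant receptors, and in most cases lies in the dorsal part of the epithelium. Taar2, Taar3 and Taar4 belong to the branch that recognises primary amines, with phenylethylamine as a known ligand of mouse Taar4. The remaining olfactory members form the branch of tertiary amines, in which mouse Taar5 responds to trimethylamine, an odour of male mouse urine. The family sits in 1 cluster on chromosome 10, where the RefSeq order on assembly GRCm38.p6 runs from Taar1 through Taar2 and the others to Taar9. The Taar7 and Taar8 genes are recent local duplicates, and this bears on how their probe sets can be read.

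To show how alike the Taar7 genes are, the first 50 coding bases of each are given from RefSeq (GRCm38.p6), 5′ to 3′ on the coding strand. Taar7b is the reference, in lower case, and capitals in the others mark the bases that differ from Taar7b at the same place, with no gaps allowed.
Taar7b at chr10:23999939-23999988 (+): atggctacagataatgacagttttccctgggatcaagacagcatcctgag
Taar7d at chr10:24027222-24027271 (+): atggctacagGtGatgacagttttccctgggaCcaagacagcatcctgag
Taar7e at chr10:24037614-24037663 (+): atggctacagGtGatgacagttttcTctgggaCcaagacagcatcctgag
Taar7f at chr10:24049510-24049559 (+): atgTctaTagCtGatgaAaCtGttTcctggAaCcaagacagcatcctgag
Taar7a at chr10:23993432-23993481 (-): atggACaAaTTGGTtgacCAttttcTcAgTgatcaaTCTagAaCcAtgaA
Taar7d differed from Taar7b at 3 of the 50 bases, Taar7e at 4 and Taar7f at 10, against 20 for Taar7a. In Taar2, Taar3, Taar5, Taar6, Taar8b and Taar9 the 50 bases from the annotated start differed from Taar7b at 34 to 38 places. Where the array's probes lie within these genes was not analysed here, so signal from a near-identical copy cannot be separated in the Taar7 and Taar8 probe sets, including those that carry 1 symbol.

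RefSeq promoter windows were found for 11 of the 15 Taar genes. Each window runs from upstream of the annotated start to 50 bases after it, and in all 11 the coding sequence begins at that start. All but the last 50 bases of a window thus lie upstream of the coding sequence, and the window need not hold the promoter. The windows were searched on both strands for 3 motifs, none of which contains another. TATAAA, the core of a TATA box, was present in 6 of the 11 windows (Taar2, Taar5, Taar7a, Taar7b, Taar7f and Taar8b), against 13.6% of all 32851 windows and 41.2% of 944 odorant receptor windows. TAATTA, a core that homeodomain factors such as Lhx2 can bind, was present in the Taar8b window only, against 5.29% of all windows and 18.6% of odorant receptor windows. The palindrome of the Olf1/EBF factors was in 0 of the 11 windows, against 0.904% of all windows and 0.53% of odorant receptor windows. A match describes letters and not a bound site, and a missing match says only that those letters are not in the window.

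The shared Taar7, Taar7b and Taar7d probe sets were the brightest members. The shared Taar7 probe set averaged 9.37 ± 0.25 (log2, mean ± SD over 12 arrays), above 80.7% of all experimental probe sets and 94.2% of odorant receptor probe sets. Taar7b averaged 9.11 ± 0.29, Taar7d 8.15 ± 0.27, Taar4 7.73 ± 0.34 and Taar9 7.72 ± 0.41. Below them stood the shared Taar8 probe set at 7.34 ± 0.21, Taar6 at 7.17 ± 0.27, Taar2 at 6.77 ± 0.44 and Taar3 at 6.48 ± 0.28. Taar5 was the dimmest at 6.21 ± 0.27, above 14.3% of experimental and 13.7% of odorant receptor probe sets. The span between the first and the last was thus 3.16 on the log2 scale. Probes differ in how well they bind their target, so this is an order of signals and not of transcript numbers.

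Between neighbours in this order, only a pair of steps exceeded the larger SD of the 2 probe sets compared. Taar7b stood 0.96 above Taar7d, in 12 of 12 arrays, and Taar7d stood 0.43 above Taar4, in 8 of 12 arrays. The other 7 steps, between 0.01 (Taar4 over Taar9) and 0.41 (Taar6 over Taar2), did not exceed that spread. Even so, the shared Taar7 probe set was above Taar7b in 12 of 12 arrays, by 0.26 on average. Taken from the H2be-KO arrays alone, 10 of 10 members held the same place in the order, and from the WT arrays alone 8 did. Of the Taar probe sets outside the list, Taar7f averaged 8.62 ± 0.14 and Taar7e 7.72 ± 0.17, whereas Taar1, which is known from brain and not as an odour receptor, averaged 6.45 ± 0.22. Taar8b averaged 5.65 ± 0.37 and Taar8c 5.51 ± 0.27, near the lower end of the signals tested, although all 5 passed the filter.

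**Figure D1:**
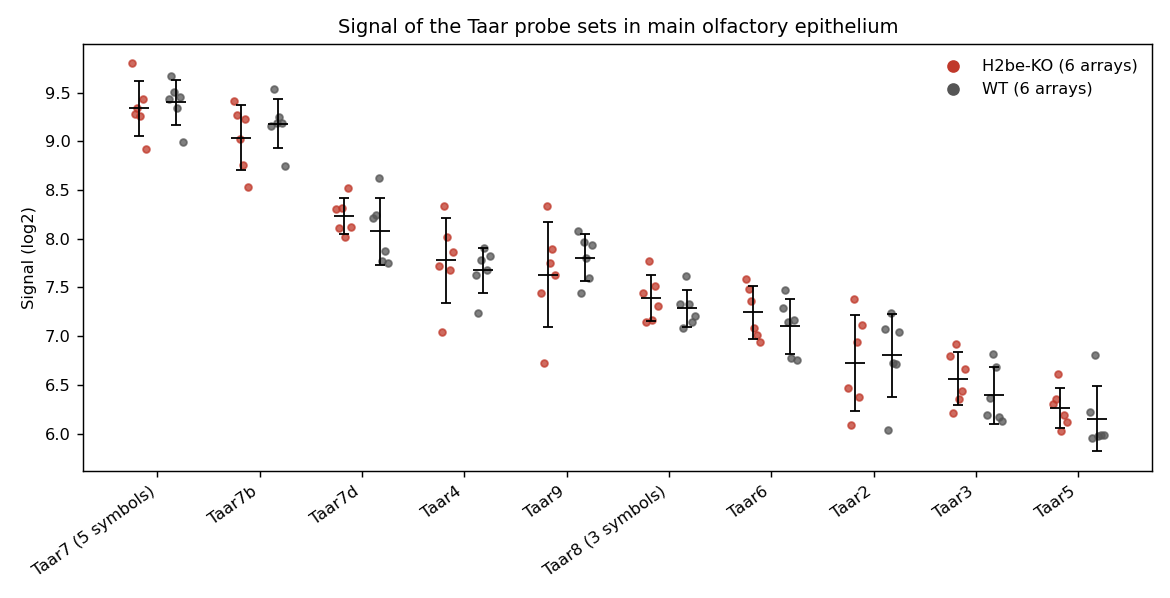
Signal (log2, y axis) of the 10 Taar probe sets (x axis, brightest first) in each array, with 6 H2be-KO arrays in red left of 6 WT arrays in grey, and bars for the mean ± SD of each genotype. The shared Taar7 probe set is highest at a mean of 9.37 and Taar5 lowest at 6.21, and in every member the points of the genotypes overlap.

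No Taar receptor passed the test of a difference between the genotypes. At an unadjusted limma p under 0.05, 0 of the 10 members were called, against 5.55% (1563) of the 28151 probe sets tested, and by the exact permutation test 0 of 10 were called, against 6.01%. After adjustment over all probe sets, 0 of 28151 were called, and the members' adjusted p ran from 0.766 to 0.926. In 0 of 10 members were the arrays of the genotypes fully apart, against 0.178% of probe sets. Differences, given as H2be-KO minus WT on the log2 scale, ran from -0.17 to 0.17, with 6 above and 4 below 0 and a median of 0.105, beside 0.023 over all probe sets tested. In whole tissue, fewer neurons with a receptor and less RNA per neuron cannot be told apart.

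Among the primary amine branch, Taar2 read 6.09, 6.71 and 7.38 in H2be-KO (lowest, median and highest of 6 arrays) and 6.04, 6.88 and 7.24 in WT arrays. The genotypes covered nearly the same range, and the difference was -0.08 with a standard error of 0.23 (exact permutation p = 0.784, n = 6 each). Taar3, a receptor that in mouse responds to isoamylamine, read 6.21, 6.55 and 6.92 in H2be-KO arrays and 6.13, 6.28 and 6.82 in WT arrays. Its difference of 0.17 ± 0.15 (SE) had the smallest p of the members (exact permutation p = 0.294, n = 6 each), and 1 H2be-KO array lay above every WT array. Taar4 read 7.04, 7.79 and 8.34 in H2be-KO arrays and 7.24, 7.73 and 7.90 in WT arrays. Here 2 H2be-KO arrays lay above and 1 below every WT array. The SD was 0.43 over H2be-KO arrays and 0.23 over WT arrays, and whether the spread differs was not tested. The difference in means was 0.11 ± 0.18 (SE, exact permutation p = 0.615, n = 6 each).

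The trimethylamine receptor Taar5 read 6.03, 6.24 and 6.61 in H2be-KO arrays and 5.95, 5.98 and 6.81 in WT arrays. WT replicate 3 held the highest value and the other WT arrays were at or under 6.22, with a difference of 0.11 ± 0.15 (SE, exact permutation p = 0.504, n = 6 each). Without WT replicate 3 the difference in Taar5 was 0.24 and its unadjusted limma p was 0.0386. Taar6, of the tertiary amine branch, read 6.94, 7.22 and 7.59 in H2be-KO arrays and 6.76, 7.15 and 7.47 in WT arrays. The ranges overlapped over most of their length, and the difference was 0.14 ± 0.14 (SE, exact permutation p = 0.379, n = 6 each). Taar9 read 6.72, 7.69 and 8.34 in H2be-KO arrays and 7.44, 7.87 and 8.08 in WT arrays. One H2be-KO array lay above and 1 below every WT array, and the difference was -0.17 ± 0.21 (SE, exact permutation p = 0.526, n = 6 each).

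The Taar7 probe sets differed in sign, though none of their differences passed its test. Taar7b read 8.53, 9.12 and 9.41 in H2be-KO arrays and 8.75, 9.19 and 9.54 in WT arrays, a difference of -0.14 ± 0.15 (SE, exact permutation p = 0.422, n = 6 each). Similarly, the shared Taar7 probe set read 8.92, 9.31 and 9.80 in H2be-KO arrays and 8.99, 9.44 and 9.67 in WT arrays, a difference of -0.06 ± 0.14 (SE, exact permutation p = 0.695, n = 6 each). In both, replicate 6 was the lowest array of each genotype. Taar7d read 8.02, 8.21 and 8.52 in H2be-KO arrays and 7.75, 8.04 and 8.62 in WT arrays, a difference of 0.16 ± 0.14 (SE, exact permutation p = 0.333, n = 6 each). No H2be-KO array lay above the highest WT array, replicate 3, and without that array the difference was 0.27 with an unadjusted limma p of 0.0484. The shared Taar8 probe set read 7.14, 7.38 and 7.77 in H2be-KO arrays and 7.08, 7.27 and 7.62 in WT arrays, a difference of 0.10 ± 0.12 (SE, exact permutation p = 0.424, n = 6 each). Outside the list, Taar1 differed by 0.16, Taar7e by 0.07, Taar7f by 0.03, Taar8b by -0.09 and Taar8c by 0.06, and none was called.

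**Figure D2:**
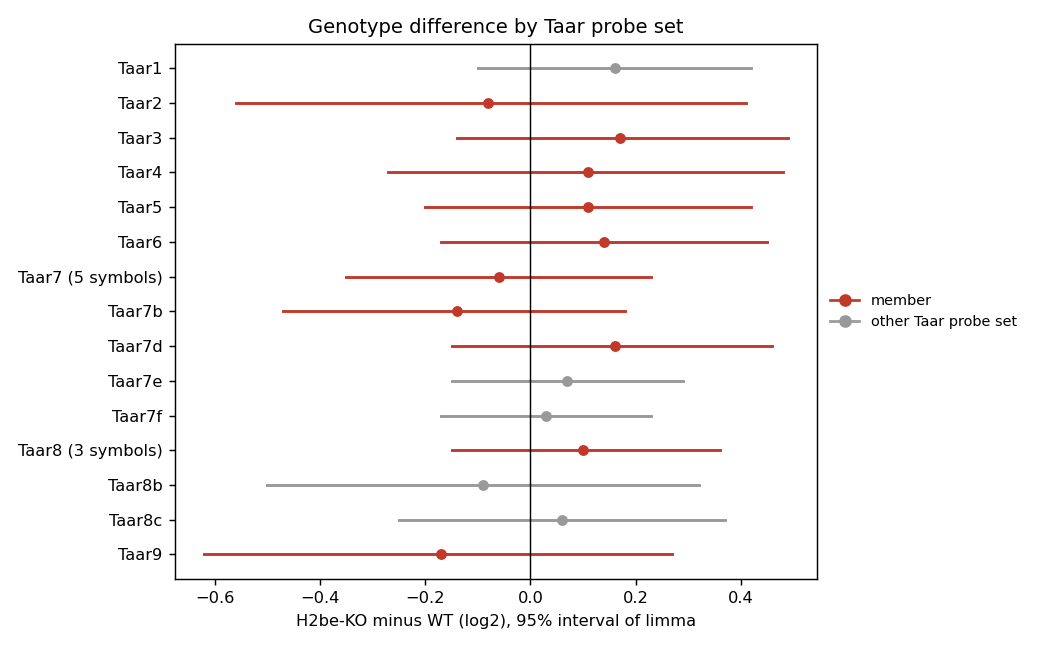
Difference of the genotypes (H2be-KO minus WT, log2, x axis) for each Taar probe set (y axis, in chromosomal order), with limma's 95% interval as a line, members in red and other Taar probe sets in grey. Every interval includes 0, and over the members the bounds reach from -0.62 in Taar9 to 0.49 in Taar3.

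These intervals state what the 12 arrays leave possible. For Taar9 the 95% interval of the ratio of H2be-KO to WT was 0.65 to 1.2, and for Taar2 it was 0.68 to 1.33. In Taar3 and in Taar4 the upper bound was 1.4. The narrowest among the members was the shared Taar8 probe set, at 0.90 to 1.28. The standard error of a member's difference was 0.12 to 0.23, beside a median of 0.112 over all probe sets tested. Within a genotype the members' SD was 0.214 to 0.461, with a median of 0.281, beside 0.262 for odorant receptors and 0.198 for all probe sets tested. Of the 118 class I odorant receptors tested, the branch shared with fish, 1 passed the unadjusted threshold as higher and 0 as lower, with a median difference of -0.034. Of the 869 class II odorant receptors tested, 45 were higher and 8 lower, with a median of 0.074, beside 3.78% higher and 1.77% lower over all probe sets.

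Although the Taar receptors did not separate the genotypes, several of them correlated from array to array. For this, the mean of each genotype was subtracted and the members were correlated over the 12 arrays, in 45 pairs. Of these, 34 had a positive and 11 a negative Pearson's r, with a median of 0.31. At a p adjusted over the 45 pairs under 0.05 (permutation test), 11 pairs were called, 10 positive and 1 negative. By Spearman's rho 0 pairs passed after adjustment and 10 had an unadjusted p under 0.05 (permutation test). Leaving out H2be-KO replicate 2 gave 4 pairs in place of 11, and H2be-KO replicate 3 or WT replicate 5 gave 5. The median r was 0.42 among class I odorant receptors, 0.17 among class II and 0.01 among every 10th probe set tested, and the share of pairs with r beyond 0.7 in either direction was 24.4% among the members, 26.1% in class I, 6.06% in class II and 8.02% among every 10th probe set, given as a description. These permutations treat the 12 residuals as exchangeable, while same-numbered arrays of both genotypes deviated together over all probe sets at r of 0.025 to 0.592, above 0.1 in 4 of 6 pairs. What a number marks is not given in the labels. Over the 6 differences between same-numbered H2be-KO and WT arrays, an alternative added after the data had been seen, the median r of the 45 pairs was 0.05 and 0 passed after adjustment, where the smallest p of 720 orders is 0.00139 and a single pair could not pass. Of the 11 called pairs, 1 had an unadjusted p under 0.05 there (Taar2 with Taar7b), and the other 10 had r of -0.14 to 0.70 (permutation p between 0.0961 and 0.871).

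One set of receptors with positive r was Taar2, Taar4 and Taar9. Taar2 and Taar4 gave r = 0.84 (permutation p = 0.00041, adjusted p = 0.00922, rho = 0.76 with p = 0.006, n = 12), and 0.67 without the pair of arrays farthest from the median. The relation of Taar4 with Taar9 gave r = 0.87 (permutation p = 0.00085, adjusted p = 0.0127, rho = 0.52 with p = 0.0885), and 0.51 without that pair of arrays. For Taar2 with Taar9, r was 0.78 (permutation p = 0.00148, adjusted p = 0.0166, rho = 0.72 with p = 0.0103), and 0.61 without that pair. All 3 receptors were at or near their highest in H2be-KO replicate 3 and at their lowest in replicate 2 of both genotypes. In H2be-KO replicates 3 and 2, Taar9 read 8.34 and 6.72 and Taar4 read 8.34 and 7.04. Within the 6 arrays with high Xist, r was 0.91 for Taar2 with Taar4, 0.98 for Taar4 with Taar9 and 0.91 for Taar2 with Taar9. Within the 6 arrays with low Xist it was 0.61, 0.02 and -0.24 for the same pairs, so the relations of Taar9 with Taar2 and Taar4 did not hold there. Over the differences between same-numbered arrays it was 0.21 for Taar2 with Taar4, 0.66 for Taar4 with Taar9 and 0.27 for Taar2 with Taar9 (permutation p = 0.665, 0.141 and 0.6).

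A second set held Taar6, Taar7b and the shared Taar7 probe set. Taar7b and the shared Taar7 probe set gave the highest r of all pairs, 0.88 (permutation p = 0.00012, adjusted p = 0.0054, rho = 0.76 with p = 0.00518, n = 12), and 0.80 without the pair of arrays farthest from the median. Taar7b is 1 of the 5 genes of that probe set, so this pair can share transcripts. Taar6 gave r = 0.76 with the shared Taar7 probe set (permutation p = 0.00228, adjusted p = 0.0205, rho = 0.69 with p = 0.0169) and 0.72 without that pair of arrays. With Taar7b alone, Taar6 gave r = 0.72 (permutation p = 0.00842, adjusted p = 0.0407, rho = 0.63 with p = 0.0323), and 0.76 without that pair. Taar6 read 7.14 to 7.59 in the arrays with high Xist and 6.76 to 7.17 in the arrays with low Xist, and 5 of the 6 arrays with high Xist lay above all arrays with low Xist. Taar5 had the same count of 5, and the share of all probe sets with such a count was not determined. When the Y-linked mean was removed as well, r of Taar6 with Taar7b was 0.55 (permutation p = 0.0622) and that of Taar6 with the shared Taar7 probe set 0.64 (permutation p = 0.0239). Within the arrays with high and with low Xist, r of Taar7b with the shared Taar7 probe set was 0.72 and 0.92, and that of Taar6 with the shared Taar7 probe set was 0.63 in each. For Taar6 with Taar7b it was 0.90 and 0.35. Over the differences between same-numbered arrays, r was 0.70 for Taar7b with the shared Taar7 probe set (permutation p = 0.0961), 0.41 for Taar6 with the shared Taar7 probe set (permutation p = 0.433) and -0.14 for Taar6 with Taar7b (permutation p = 0.793).

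Of the 9 pairs between both sets, 1 passed after adjustment, Taar2 with Taar7b. It gave r = -0.70 (permutation p = 0.011, adjusted p = 0.0451, rho = -0.76 with p = 0.00548, n = 12), and -0.58 without the pair of arrays farthest from the median. The value was -0.70 within H2be-KO arrays and -0.71 within WT arrays, and -0.89 and -0.98 within arrays with high and with low Xist. In WT replicate 2, for instance, Taar2 was at its lowest (6.04) and Taar7b at its highest (9.54). Over the 6 differences between same-numbered arrays it was -0.95 (permutation p = 0.00804). The other 8 pairs had r of -0.52 to -0.15 and did not pass (adjusted p between 0.212 and 0.751, permutation).

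The remaining members joined through the shared Taar8 probe set. It gave r = 0.76 with Taar3 (permutation p = 0.0042, adjusted p = 0.0287, rho = 0.75 with p = 0.00651, n = 12) and 0.49 without the pair of arrays farthest from the median. Its r with Taar9 was 0.72 (permutation p = 0.0063, adjusted p = 0.0354, rho = 0.70 with p = 0.0138), and 0.63 without that pair. With Taar5 it gave r = 0.76 (permutation p = 0.00446, adjusted p = 0.0287, rho = 0.56 with p = 0.0633), but 0.26 without that pair. Taar5 and Taar7d gave r = 0.71 (permutation p = 0.00905, adjusted p = 0.0407, rho = 0.52 with p = 0.082), and 0.36 without WT replicate 3, where both were at their highest (6.81 and 8.62). Within the arrays with high and with low Xist, r with the shared Taar8 probe set was 0.84 and 0.46 for Taar3, 0.88 and 0.50 for Taar9, and 0.82 and 0.79 for Taar5. Over the differences between same-numbered arrays it was 0.55 for Taar3, 0.33 for Taar9 and 0.07 for Taar5, and 0.32 for Taar5 with Taar7d (permutation p between 0.256 and 0.871).

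**Figure D3:**
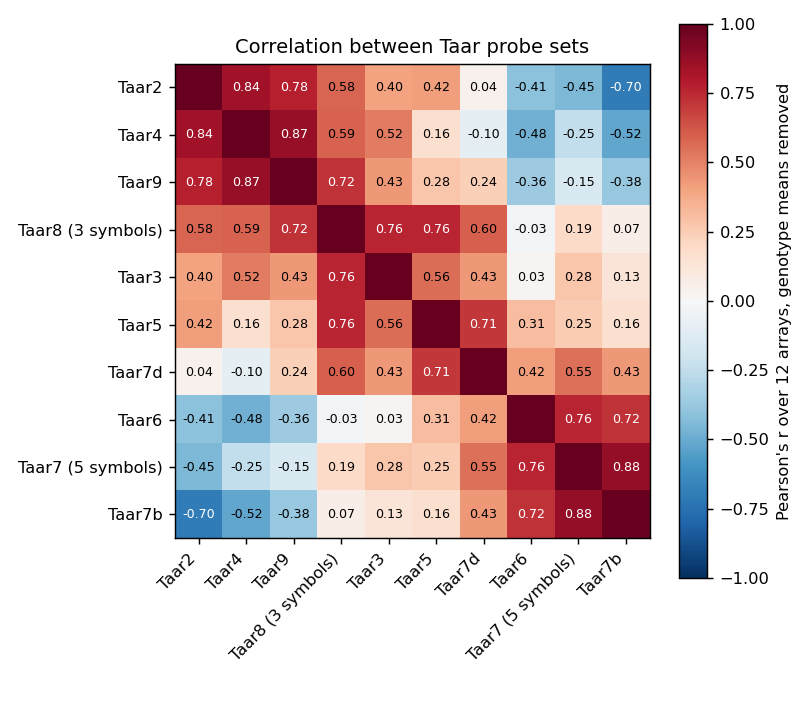
Pearson's r between the members over 12 arrays with genotype means removed (colour scale from -1 to 1, value in each cell), both axes listing the same probe sets. Taar2, Taar4 and Taar9 form a block with r of 0.78 to 0.87, Taar6, Taar7b and the shared Taar7 probe set at the other end form a block with r of 0.72 to 0.88, and the 9 cells between these blocks are negative, 1 of which passed after adjustment.

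**Figure D4:**
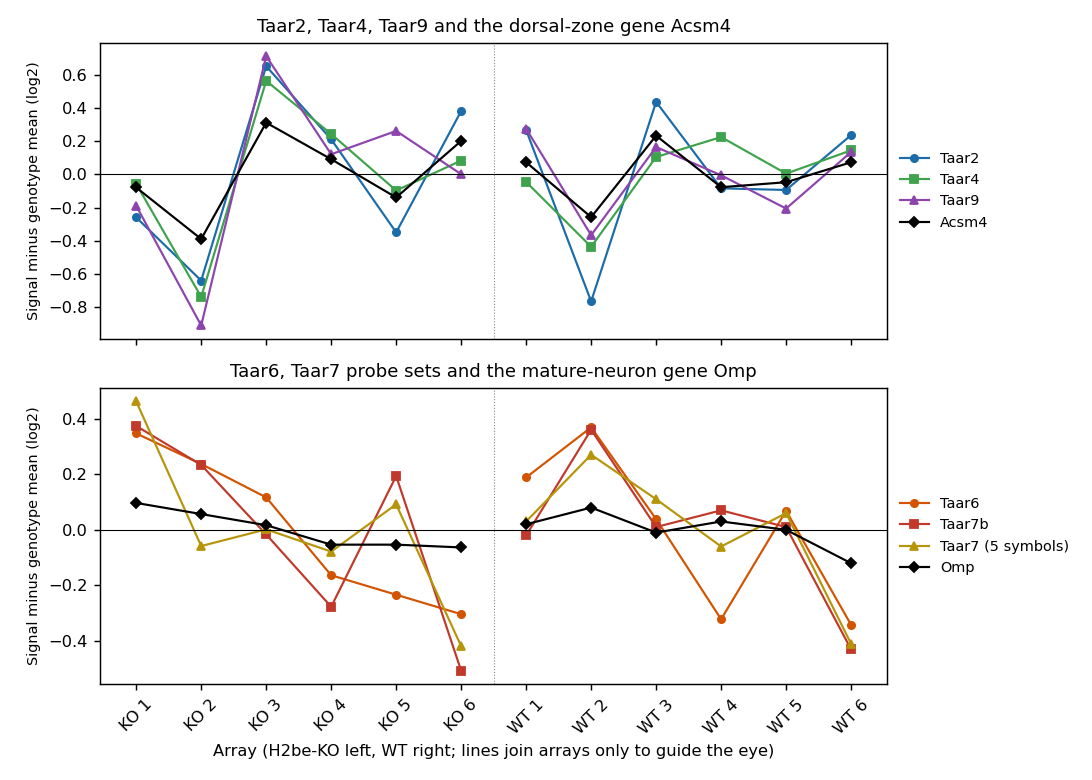
Signal minus genotype mean (log2, y axis) in each array (x axis, 6 H2be-KO arrays left of 6 WT arrays, lines only to guide the eye), for Taar2, Taar4, Taar9 and the dorsal-zone gene Acsm4 in the upper panel and for Taar6, Taar7b, the shared Taar7 probe set and the mature-neuron gene Omp in the lower panel. In the upper panel all lines are lowest in replicate 2 of each genotype, and in the lower panel Taar7b and the shared Taar7 probe set are lowest in replicate 6 of each genotype.

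The members were then set beside markers of region and of neurons, a comparison added after the data had been seen. These were Acsm4, an acyl-CoA synthetase of the dorsomedial zone, Nqo1, a quinone reductase of dorsal-zone neurons, Omp, the marker of mature olfactory neurons, and the means of class I and of class II odorant receptors. Of the 50 relations, 14 had an adjusted p under 0.05 by Pearson's r and 5 by Spearman's rho (permutation test), 4 of them by both (Taar2 with Acsm4 and with the class I mean, and Taar6 and Taar7b with Omp). The one by rho alone was Taar7d with Nqo1 (r = 0.55, adjusted p = 0.149, rho = 0.77, adjusted p = 0.0471, permutation), where r was 0.88 without the pair of arrays farthest from the median. Over the 6 differences between same-numbered arrays 0 of the 50 passed after adjustment, where a single relation could not, and 3 of the 50 had an unadjusted p under 0.05 (exact permutation test). Of these, 2 were among the 14, Taar4 with the class I mean (r = 0.91, exact p = 0.0333) and Taar9 with Nqo1 (r = 0.85, exact p = 0.00278). The other was Taar5 with the class I mean, at r = -0.94 (exact p = 0.025), against 0.44 over the 12 arrays. Taar2 followed Acsm4 closely, with r = 0.97 (permutation p = 1e-05, the smallest that 100000 resamples can give, adjusted p = 0.0005, rho = 0.95 with p = 2e-05, n = 12), and 0.97 without the pair of arrays farthest from the median. Both were low in replicate 2 and high in replicate 3 of each genotype, Acsm4 at 11.55 and 12.25 in H2be-KO arrays and at 11.70 and 12.19 in WT arrays. Acsm4 was not alone in this, as 376 probe sets with 1 symbol had r over 0.8 with Taar2, led by Sult1c1 at 0.98. Taar4 and Taar9 gave r of 0.86 and 0.82 with Acsm4 (adjusted p = 0.00725 and 0.01, permutation, rho = 0.75 with p = 0.00682 and 0.67 with p = 0.0201), and 0.66 and 0.54 without that pair of arrays. Within the arrays with high and with low Xist, r with Acsm4 was 0.97 and 0.99 for Taar2, 0.97 and 0.51 for Taar4, and 0.95 and -0.32 for Taar9, so for Taar9 it did not hold in the arrays with low Xist. Over the differences between same-numbered arrays, r with Acsm4 was 0.76 for Taar2, 0.45 for Taar4 and 0.45 for Taar9 (exact permutation p = 0.0806, 0.446 and 0.318). The other dorsal-zone marker, Nqo1, gave r of 0.60 with Taar2 and 0.65 with Taar4, and neither passed (adjusted p = 0.0909 and 0.0829, permutation). Without the pair of arrays farthest from the median of Nqo1, these were 0.13 and -0.36. Within the arrays with high and with low Xist, r with Nqo1 was 0.76 and -0.01 for Taar2, and 0.95 and -0.45 for Taar4. Acsm4 itself averaged 11.94 ± 0.25 in H2be-KO arrays and 11.95 ± 0.17 in WT arrays (SD, n = 6 each).

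Omp stood beside the other set. Its r was 0.85 with Taar7b (permutation p = 0.00061, adjusted p = 0.00837, rho = 0.83 with p = 0.00143, n = 12), and 0.76 without the pair of arrays farthest from the median. With Taar6 it was 0.84 (permutation p = 0.00067, adjusted p = 0.00837, rho = 0.78 with p = 0.00373) and 0.77 without that pair. For the shared Taar7 probe set it was 0.79 (permutation p = 0.00214, adjusted p = 0.0129, rho = 0.62 with p = 0.0362), and 0.56 without that pair. Within the arrays with high and with low Xist, r with Omp was 0.96 and 0.68 for Taar7b, 0.98 and 0.38 for Taar6, and 0.72 and 0.69 for the shared Taar7 probe set. Over the differences between same-numbered arrays it was 0.62, 0.37 and 0.50 in the same order (exact permutation p = 0.196, 0.451 and 0.319). Omp varied little, from 12.84 to 13.00 in H2be-KO arrays and from 12.78 to 12.98 in WT arrays. It is 1 of 20 mature neuron markers, and the relation of the members with the mean of these markers was not tested. In H2be-KO replicate 1, Omp was at its highest (13.00), while the marker mean was 11.41. The marker mean was highest in H2be-KO replicate 3 (11.57), where Omp read 12.92 and Taar7b 9.02. Omp and the marker mean thus peaked in different arrays, and the r values above are with Omp alone, not with the mature neuron list. Across the sets the values were negative, at -0.52 for Taar2 with Omp and -0.65 for Taar7b with Acsm4, and neither passed after adjustment (adjusted p = 0.18 and 0.0792, permutation).

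The class I mean went with Taar2 (r = 0.78, permutation p = 0.00158, adjusted p = 0.0129, rho = 0.82 with p = 0.00193), and r was 0.63 without the pair of arrays farthest from the median. With Taar9, Taar4, the shared Taar8 probe set and Taar3 it gave r of 0.86, 0.84, 0.76 and 0.66 (adjusted p between 0.0129 and 0.0425, permutation), which became 0.35, 0.36, 0.55 and 0.43 without that pair. Within the arrays with low Xist, r with the class I mean was 0.53 for Taar2, -0.73 for Taar9, 0.64 for Taar4, -0.56 for the shared Taar8 probe set and 0.47 for Taar3. Nqo1 gave r = 0.82 with Taar9 and 0.74 with the shared Taar8 probe set (adjusted p = 0.0163 and 0.017, permutation, rho = 0.64 with p = 0.03 and 0.53 with p = 0.0778), and 0.26 and 0.47 without that pair. Within the arrays with high and with low Xist, r with Nqo1 was 0.92 and 0.64 for Taar9 and 0.83 and 0.25 for the shared Taar8 probe set. The class II mean passed with Taar6 (r = 0.71, permutation p = 0.00948, adjusted p = 0.0365, rho = 0.64 with p = 0.0271), and r was 0.66 without that pair and 0.22 within the arrays with low Xist.

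**Figure D5:**
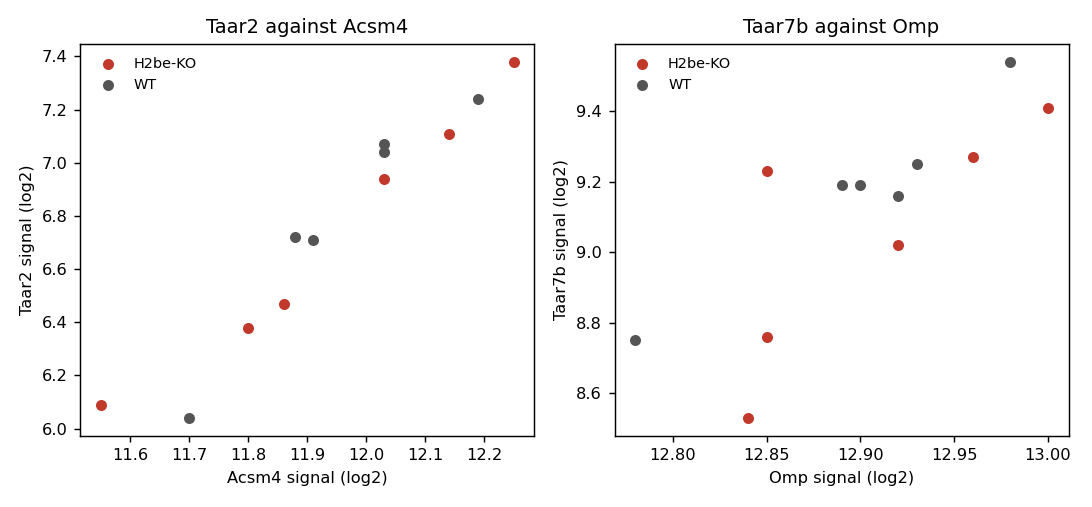
Signal (log2) of Taar2 against Acsm4 (left) and of Taar7b against Omp (right), 1 point per array, 6 H2be-KO arrays in red and 6 WT arrays in grey. With genotype means removed, r was 0.97 for Taar2 and 0.85 for Taar7b, and arrays of both genotypes lie along the same trend.

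By a rule that named the 5 genes most like the mean of the centred members over the 12 arrays, all 5 were odorant receptors. They were Olfr808 (r = 0.93), Olfr1044 (0.92), Olfr607 (0.91), Olfr497 (0.91) and Olfr685 (0.90), given as a description without a test. In all, 51 probe sets with 1 symbol had r over 0.8 with that mean. With single members as the pattern, this count ran from 10 in Taar7d to 376 in Taar2. It was 227 in Taar7b, 191 in Taar4, 114 in Taar6 and 88 in Taar9, so a high r of these members is not particular to 1 gene. For single members, the most alike gene was an odorant receptor in 2 of 10, Olfr582 for Taar4 (r = 0.96) and Olfr575 for Taar9 (0.95). For the other 8 it was Sult1c1, a sulfotransferase listed here among sustentacular cell markers, for Taar2 (0.98), Nat3 for Taar3 (0.90), Hspa8 for Taar5 (0.88), Macrod2 for Taar6 (0.93), Atad3a for the shared Taar7 probe set (0.92), 2610005L07Rik for Taar7b (0.94), Tdgf1 for Taar7d (0.89) and Itih2 for the shared Taar8 probe set (0.92). None of the 5 genes most like the mean was called between the genotypes, with the smallest unadjusted limma p at 0.144 for Olfr808.

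Genes beside the Taar cluster gave no call either. Of the 10 nearest protein-coding genes with a probe set of their own, 5 on each side, 0 had an unadjusted limma p under 0.05. This stands beside 5.55% of all probe sets tested, a share at which 0 of 10 is not unusual. Next to Taar1, the pantetheinase gene Vnn1 read 7.04 ± 0.16 in H2be-KO arrays and 7.20 ± 0.18 in WT arrays (SD, n = 6 each), a difference of -0.17 (exact permutation p = 0.126). Next to Taar9, the syntaxin gene Stx7, which acts in endosome fusion, read 9.88 ± 0.10 in H2be-KO arrays and 9.80 ± 0.19 in WT arrays, a difference of 0.08 (exact permutation p = 0.381, n = 6 each). The ribosomal protein gene Rps12 had the smallest p, with a difference of 0.15 (exact permutation p = 0.0758, n = 6 each). Rps12 has 14 probe sets, of which only the brightest is given, and whether it lies at this locus was not analysed here.

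The signalling chain that Taar neurons use was present at high signal in both genotypes. Of its 19 genes 0 were called by limma, beside 5.55% of all probe sets tested. The median difference was 0.029, beside 0.023 over all probe sets tested. Cnga2, a subunit of the olfactory channel, read 12.20 ± 0.10 in H2be-KO arrays and 12.11 ± 0.11 in WT arrays (SD, n = 6 each). Gnal, the olfactory G protein, read 11.41 ± 0.30 in H2be-KO arrays and 11.35 ± 0.08 in WT arrays. For Adcy3, the adenylyl cyclase of olfactory cilia, the values were 11.73 ± 0.09 in H2be-KO arrays and 11.81 ± 0.06 in WT arrays. Within this list the smallest limma p belonged to Reep1, a receptor trafficking factor (difference -0.14, limma p = 0.131, exact permutation p = 0.0866), and Slc24a4, the sodium-calcium exchanger of olfactory cilia, gave a difference of -0.13 (limma p = 0.137, exact permutation p = 0.0498).

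Among 21 factors of receptor choice, 0 were called by limma, beside 5.55% of all probe sets tested, and the median difference was 0.001. Lhx2, a homeodomain factor that binds olfactory receptor enhancers, read 10.87 to 11.13 in H2be-KO arrays and 10.77 to 11.20 in WT arrays. Its partner Ldb1 read 10.93 to 11.06 in H2be-KO arrays and 10.84 to 11.12 in WT arrays, so the genotypes overlapped in both. The smallest p by limma belonged to Nfix, a nuclear factor I gene (difference -0.21, exact permutation p = 0.026, limma p = 0.062), and to the stress-response factor Ddit3 (difference 0.22, exact permutation p = 0.0866, limma p = 0.0643). Of 11 genes of the dorsal zone and of axon sorting, 2 were lower and 0 higher at an unadjusted limma p under 0.05, beside 1.77% lower and 3.78% higher over all probe sets, with a median of -0.018. The lower ones were the guidance cue Sema3f (difference -0.21, exact permutation p = 0.0152) and the adhesion gene Kirrel3 (difference -0.17, exact permutation p = 0.013), both with a limma adjusted p of 0.753.

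Of 21 genes that make or break down amines, 2 were higher, 0 were lower, and the median difference was 0.043. Sat2, a relative of the spermidine acetyltransferase Sat1, read 6.92 ± 0.09 in H2be-KO arrays and 6.58 ± 0.16 in WT arrays (SD, n = 6 each, exact permutation p = 0.00433). Hnmt, which methylates histamine, read 7.74 ± 0.13 in H2be-KO arrays and 7.48 ± 0.25 in WT arrays (exact permutation p = 0.0563, n = 6 each, limma p = 0.038). Both had a limma adjusted p of 0.753. The share of 2 in 21 stands beside 3.78% of all probe sets called higher.

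Cell type markers showed what the tissue held. The mean of 20 mature neuron markers was 11.28 to 11.57 in H2be-KO arrays and 11.38 to 11.45 in WT arrays, and 0 of 20 were called, with Omp at 12.90 ± 0.07 in each genotype (SD, n = 6 each). Of 10 immature neuron markers 1 was higher, Gap43 (difference 0.25, limma p = 0.0336, exact permutation p = 0.0455), part of whose coding sequence is in the H2be-KO reporter, and whether its probes cover that stretch was not analysed here. Of 9 globose basal cell markers 2 were higher, Gadd45g (difference 0.29, limma p = 0.00972, exact permutation p = 0.0108) and Top2a (difference 0.32, limma p = 0.0495, exact permutation p = 0.0801). Of 6 horizontal basal cell markers 1 was lower, Itgb4 (difference -0.26, limma p = 0.0327, exact permutation p = 0.0325). These calls are at an unadjusted limma p under 0.05, beside 3.78% higher and 1.77% lower over all probe sets, and the adjusted p was 0.753 for all 4. Lists for sustentacular cells (7 genes), glands and respiratory epithelium (10), vomeronasal neurons (5), macrophages (7), guanylate cyclase D neurons (5), erythroid cells (2) and bone, cartilage and tooth (5) had 0 called. The bone, cartilage and tooth mean ranged from 7.0 to 8.9 in H2be-KO arrays and from 7.16 to 7.60 in WT arrays, with Amelx high in 2 H2be-KO arrays as given above. Without these 2 arrays 0 of 10 Taar members were called, and 3 pairs of members passed the adjusted threshold in place of 11.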

How the data were processed

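RNA was prepared from whole MOE, and the authors, per the study's methods, screened the scanner files with arrayQualityMetrics, summarised probes by IterPLIER and normalised arrays by sketch-quantile in Affymetrix Expression Console, for which no version is stated. The deposited table holds a log2 signal for each of 35556 probe sets on each of 12 arrays. Normalization across arrays removes a change that affects most transcripts alike. Arrays hold no count of molecules, so their number limits the precision. The 6612 control probe sets were left out. Symbols came from the platform annotation (21789 probe sets with 1 symbol, 1621 with several, 5534 with none).

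Genotypes came from the sample titles. Probe sets with a mean above 5 were kept (28151), and a linear model of genotype was fitted by lmFit and eBayes (limma 3.58.1, R 4.3.3), with Benjamini-Hochberg adjustment over all of them. Standard errors are limma's. Single probe sets also carry a two-sided exact permutation test over all 924 choices of 6 of 12 arrays, whose smallest p is 0.0022. Correlations used 100000 permutations of residuals after genotype means were removed, two-sided, adjusted over 45 pairs or 50 relations. Arrays of 1 genotype were from separate pools of mice per the methods. The fit was tested on simulated data. Named genes were the members, the 5 most alike genes, the 5 nearest genes on each side of the cluster, up to 3 genes of smallest p per list and Omp, Cnga2, Gnal, Adcy3, Lhx2 and Ldb1. A gene with several probe sets is given by its brightest. Members, lists and tests were chosen with earlier results of these data known. Xist, Amelx, H2bc21 and the most alike gene of single members were named after their values were seen. Alternatives covered the filter, a floor, normalization, centring, covariates, the replicate block, array weights, moderation and each array left out.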

Additional observations from a re-analysis of the deposited data

Results flagged for a closer look

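In 15 Taar probe sets, 30 groups of 6 arrays were examined for an array far from the others of its genotype, and 3 were found, where chance gives about 1 in 20 groups. WT replicate 3 read 6.81 in Taar5, with the next WT array at 6.22. In Taar7f, WT replicate 6 read 8.26, with the next at 8.60. The same array, WT replicate 6, read 5.23 in Taar8c, with the next at 5.49. None of the H2be-KO groups was picked out in this way.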

How the results depend on the processing

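Over 26 alternatives, the number of members with an unadjusted p under 0.05 was 0 in all but 1, and ranged from 0 to 2 when each array was left out in turn. The exception was without WT replicate 3 (2 members, Taar5 and Taar7d). The median difference of the members stayed between 0.011 and 0.139. With each array left out in turn, the difference ranged from -0.23 to 0.05 in Taar2, from -0.01 to 0.25 in Taar4, from -0.15 to 0.02 in the shared Taar7 probe set and from -0.32 to 0.01 in Taar9. Signs turned without H2be-KO replicate 2 for Taar2 (0.05) and Taar9 (0.01), without H2be-KO replicate 3 for Taar4 (-0.01), without H2be-KO replicate 6 for the shared Taar7 probe set (0.02) and without WT replicate 3 for Taar2 (0.01), and the cause was not tested. Over all probe sets, the number with an unadjusted p under 0.05 (1563) was 4099 with array weights and 836 to 3817 with each array left out (leaving out H2be-KO replicate 5 gave 836, replicate 3 gave 974 and replicate 4 gave 2835, and leaving out WT replicate 6 gave 3817). With the replicate number as a block it was 2990, no member was called and the median difference was 0.105. The labels do not say what a number marks, and same-numbered arrays deviated together at r of 0.025 to 0.592, over 0.1 in 4 of 6 pairs, and 4 of 6 H2be-KO arrays matched their own number best.

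Of 45 pairs of members, 11 passed at an adjusted p under 0.05. This was 7 with genotype means left in, 0 by Spearman's rho, 7 relative to the odorant receptors, 3 without both arrays with high Amelx and 4 to 9 with each array left out. Leaving out H2be-KO replicate 2 gave 4, H2be-KO replicate 3 or WT replicate 5 gave 5, H2be-KO replicate 1 or 6 or WT replicate 3 gave 6, and WT replicate 2 or 6 gave 7. Within the 6 arrays with high Xist and within the 6 with low Xist it was 0, from fewer arrays, and r of Taar2 with Taar9 turned to -0.24 in those with low Xist. With the replicate number as a block, over the 6 differences between same-numbered arrays, it was 0, the median r was 0.05 and r of Taar6 with Taar7b turned to -0.14, and the cause was not tested. This block, the splits by Xist, and the removal of the Y-linked mean (9 pairs), were chosen after seeing the data. The order of signals kept 8 to 10 of 10 members in place over 4 alternatives. The members' spread limits what 12 arrays can show, with standard errors up to 0.23.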
